A study of Homo sapiens with 6 samples.

Results

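IFITM1, IFITM2, IFITM3, BST2 and PLSCR1 encode membrane proteins linked to antiviral defence, and IFITM10 is a more distant relative of the IFITM genes. The RNA of these 6 genes was compared between HT29 cells with and without knockdown of ALDOA, which encodes the glycolytic enzyme aldolase A. The 6 genes were taken by symbol from the 28278 genes listed for each library, and all 6 passed the filter on low counts, as did 15307 genes in total. They were selected on measured values, since the counts of these same libraries were known when the list was drawn up. The differences of the 6 genes between the groups are therefore given as a description; how many of them the test across all genes called is given beside the share over all genes, with nothing read from it. Genes around them were read from that test. HT29 is an epithelial line derived from a human colorectal adenocarcinoma. The siALDOA group received siRNA targeting ALDOA and the siControl group, otherwise wild type, a scrambled siRNA, and RNA was taken 48 h later from 3 biological replicates of each. The study examined what ALDOA does in colorectal cancer, and RNA-Seq was its view of the transcriptome after knockdown.

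Total gene counts were 33237914, 31973122 and 31899091 in siControl and 28166497, 28690395 and 27277538 in siALDOA. Counts were scaled with trimmed mean of M values (TMM) factors and are given as CPM, the count of a gene for each 1e+06 scaled counts of its library. The target came first as a check of the labels. ALDOA (ENSG00000149925, chromosome 16 of hg38, 30064164 to 30070457) stood at 592, 637 and 668 CPM in siControl and at 283, 305 and 279.7 CPM in siALDOA. All 3 siALDOA libraries were below all 3 siControl libraries, and the log2 fold change was -1.13 (standard error 0.060, edgeR adjusted p = 6.95e-11). Epithelial markers were present in every library, and summed to 9198, 9437 and 9664 CPM in siControl and 8387, 8465 and 8622 CPM in siALDOA over 10 genes. KRT8, a keratin of simple epithelia, was the most abundant of these, LGALS4 had 0 counts throughout, and KRT18, its keratin partner, was lower in siALDOA by a log2 fold change of -0.28 (standard error 0.072, edgeR adjusted p = 0.0152). The call of KRT18 was lost without siALDOA replicate 2 or 3 or siControl replicate 2 or 3, at -0.27 (edgeR adjusted p = 0.0512 to 0.0749), and with library totals only, at -0.21 (edgeR adjusted p = 0.243).

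Interferons are secreted by cells that sense viral nucleic acid, and their receptors signal through JAK kinases to transcription factors such as STAT2 and IRF9, which bind the interferon-stimulated response element (ISRE) in front of target genes. Among the products are proteins that act at membranes. IFITM1, IFITM2 and IFITM3 sit in the plasma membrane and endosomes and hinder the fusion of enveloped viruses. Tetherin, the product of BST2, holds budding virions on the cell surface, and PLSCR1 is a phospholipid scramblase that is also found in the nucleus. In epithelial cells such as those of the gut, type I and type III interferons both switch on such genes.

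IFITM2 (ENSG00000185201, chromosome 11, 303655 to 309397), IFITM1 (ENSG00000185885, 310041 to 315272) and IFITM3 (ENSG00000142089, 319676 to 329475) lie side by side within 25821 bases, with IFITM3 on the minus strand. IFITM10 (ENSG00000244242, 1732406 to 1750595, minus strand) lies 1402930 bases further along the same chromosome. BST2 (ENSG00000130303, 17402939 to 17405630, minus strand) is on chromosome 19 and PLSCR1 (ENSG00000188313, 146515180 to 146544856, minus strand) on chromosome 3. Coordinates are those of GENCODE release 44 on hg38.

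The promoters of the members that were higher in siALDOA are shown for the ISRE letters they share. The RefSeq promoter table (GRCh38.p14), with 250 bases before and 50 bases after each gene's start, held 4 of the 6 members, namely IFITM1, IFITM3, BST2 and PLSCR1. A core of the ISRE, GAAANNGAAA, was searched on both strands and matched in each of the 4. It matched in 1255 of all 35116 promoters in the table (3.57%). These 4 genes were chosen as genes induced by interferon, so nothing is read from the difference. IFITM10, the only member not higher in siALDOA, had no promoter in the table to set beside them. Each line gives 30 bases of the gene's own strand from 5' to 3' with the matches in capitals. The first IFITM1 stretch is at chr11:313990-314019 on the plus strand and the second, which runs across the RefSeq start, at chr11:314024-314053. The IFITM3 stretch is at chr11:320884-320913 on the minus strand and holds 2 matches. The BST2 stretch, at chr19:17405738-17405767 on the minus strand, holds 2 matches that overlap, and the PLSCR1 stretch is at chr3:146544667-146544696 on the minus strand.
IFITM1 first: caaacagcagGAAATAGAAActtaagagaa
IFITM1 second: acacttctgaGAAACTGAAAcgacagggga
IFITM3: gGAAAAGGAAActgttgaGAAACCGAAAct
BST2: tttctggGAAACTGAAACTGAAAacctaat
PLSCR1: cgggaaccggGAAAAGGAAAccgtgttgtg

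Counted from the first transcribed base as 0, the matches began at -40 and -6 in IFITM1, at -52 and -35 in IFITM3, at -130 and -124 in BST2 and at -79 in PLSCR1, or at -91 from a further RefSeq start of PLSCR1. In GENCODE the IFITM3 stretch was intronic to longer transcripts of the gene, and the IFITM1 and PLSCR1 stretches overlapped 5' exons of other annotated transcripts of the same genes. On the opposite strand, the BST2 stretch lay in exons of BISPR and MVB12A, which start there and are transcribed away from BST2. A core of the gamma-activated site, TTCNNNGAA, an element known from genes that answer to interferon gamma, was found in 2689 of the promoters (7.66%), among them those of IFITM1, BST2 and PLSCR1. It overlapped an ISRE match in IFITM1, from -12 to -4, and in BST2, from -136 to -128. A match in these letters is a description of the sequence and was not tested for binding.

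**Figure D1:**
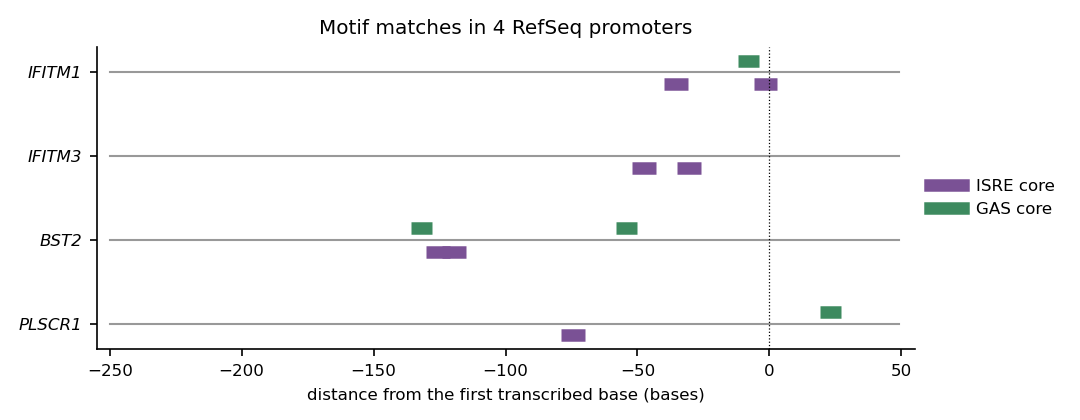
Positions of ISRE and gamma-activated site (GAS) cores in the RefSeq promoters of IFITM1, IFITM3, BST2 and PLSCR1, as distance in bases from the first transcribed base at 0; each grey line is 1 promoter and each block 1 match. Every ISRE match lies within 130 bases of the start, and the BST2 matches lie farthest from it.

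In 5 of the 6 members every siALDOA value lay above every siControl value. Over all tested genes, 13.1% had them all above and 14.6% all below. IFITM1 showed the highest log2 fold change of the 6. IFITM1, which acts mainly at the plasma membrane, stood at 21.8, 24.6 and 21.2 CPM in siControl and at 74.0, 103 and 91.0 CPM in siALDOA. The groups were far apart, and the lowest siALDOA library was replicate 1. The mean rose from 22.5 ± 1.78 to 89.2 ± 14.4 CPM (SD, n = 3 each), a log2 fold change of 1.99 (standard error 0.097).

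IFITM3, an endosomal protein that restricts influenza virus, had 62.5, 67.8 and 60.7 CPM in siControl and 118, 171 and 161 CPM in siALDOA. The groups did not overlap, and siALDOA replicate 1 was again lowest of its group. The log2 fold change was 1.24 (standard error 0.097). IFITM2, its close relative in late endosomes, had 29.1, 38.9 and 31.6 CPM in siControl and 43.5, 47.7 and 47.1 CPM in siALDOA. Here the groups came nearer to each other, with siControl replicate 2 only a little below siALDOA replicate 1, and the log2 fold change was 0.48 (standard error 0.090). Within both groups replicate 2 had the highest level of each of the 3 adjacent IFITM genes.

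BST2 was at 204, 231 and 207 CPM in siControl and at 354, 418 and 348 CPM in siALDOA. All siALDOA values lay above all siControl values, with the highest value of either group in its replicate 2, and the log2 fold change was 0.80 (standard error 0.070). PLSCR1 was at 156, 164 and 144 CPM in siControl and at 293, 287 and 289 CPM in siALDOA. Its siALDOA libraries were nearly equal (289 ± 3.04 CPM, SD, n = 3), unlike those of IFITM1 and IFITM3, and its log2 fold change was 0.90 (standard error 0.059).

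IFITM10, a more distant relative in sequence, behaved otherwise. It had 29.2, 25.7 and 26.9 CPM in siControl and 22.1, 19.9 and 25.7 CPM in siALDOA. The groups touched, since siALDOA replicate 3 was level with siControl replicate 2, and the log2 fold change was -0.27 (standard error 0.097).

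**Figure D2:**
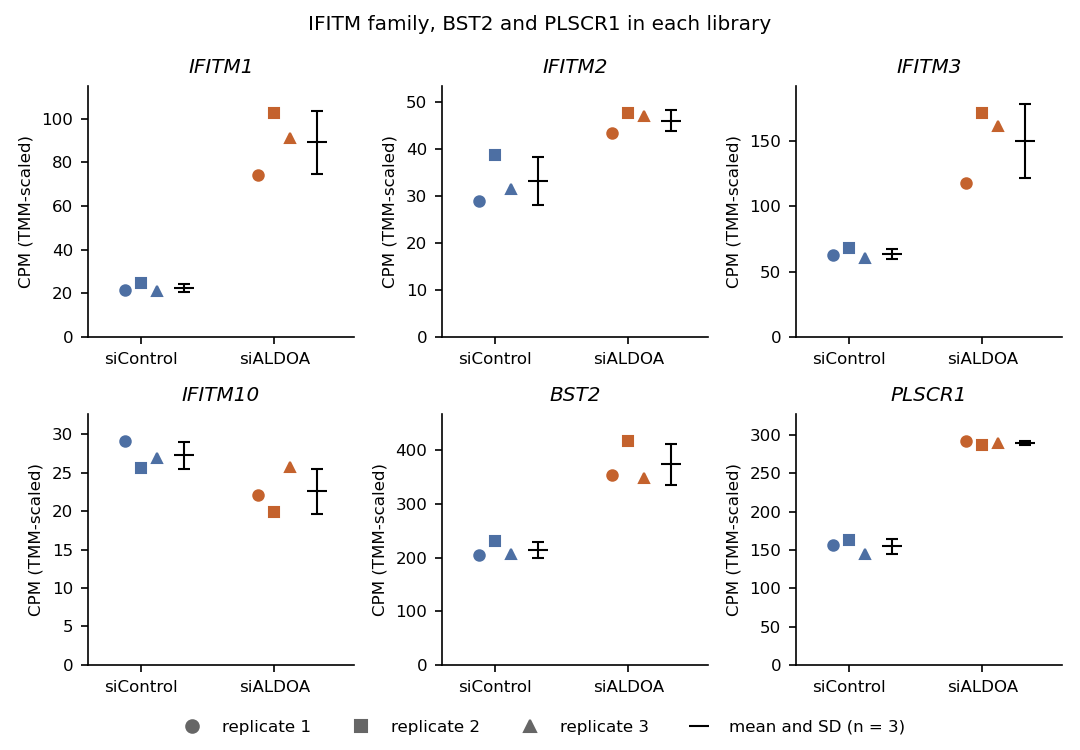
CPM of each member in each library (y axis, TMM-scaled, from 0), siControl in blue and siALDOA in orange, with the replicate given by the marker and the mean ± SD (n = 3) in black beside each group. IFITM1 runs from 21.2 to 24.6 CPM in siControl and from 74.0 to 103 CPM in siALDOA, whereas the groups of IFITM10 overlap.

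With an adjusted p below 0.05 as the call, 5 of the 6 members were called higher, where 4.36% of all tested genes were called higher (668 genes) and 5.29% lower (810 genes). The same 5 members were among the 13.1% of tested genes (2005) with all siALDOA libraries above all siControl libraries, while 14.6% (2228) had them all below. Since these values chose the members, nothing is read from the counts. Scaling by library totals alone gave 896 genes higher and 279 lower, that is 76.3% of its calls higher against 45.2%. Without siControl replicate 2, 359 genes were called higher and 490 lower, and without siControl replicate 3, 363 and 471. As bulk RNA was measured, more RNA per cell and a larger share of cells that carry it cannot be told apart.

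The share of each paralog within the summed IFITM1, IFITM2 and IFITM3 counts does not depend on the scaling between libraries. IFITM1 made up 19.2%, 18.7% and 18.7% of these counts in siControl and 31.4%, 31.9% and 30.5% in siALDOA. Its share was higher in each siALDOA library than in the siControl libraries. The counts give these shares a precision such as 18.0% to 20.6% in siControl replicate 1 and 29.5% to 31.4% in siALDOA replicate 3 (95% Wilson intervals). IFITM2 took 25.6%, 29.6% and 27.8% in siControl and 18.5%, 14.8% and 15.7% in siALDOA. IFITM2 thus lost share although its own level was higher too. IFITM3 kept a similar share, with 55.1%, 51.7% and 53.5% in siControl and 50.1%, 53.2% and 53.8% in siALDOA, and its groups overlapped. The sums behind these shares were 3535 to 4006 counts in siControl and 6555 to 9660 counts in siALDOA, and the intervals cover counting error only.

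**Figure D3:**
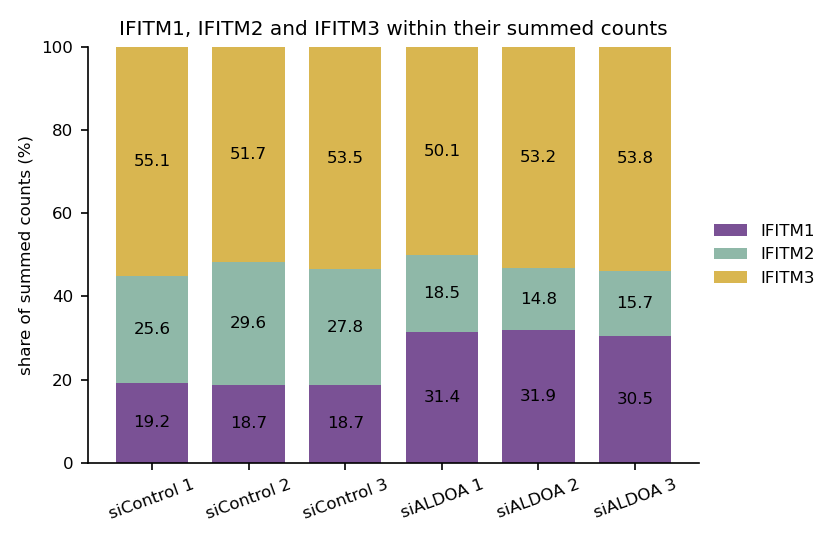
Share in percent of IFITM1, IFITM2 and IFITM3 in their summed counts (y axis, 0 to 100%), 1 stacked bar per library with the share written inside. IFITM1 goes from 18.7% to 19.2% in siControl to 30.5% to 31.9% in siALDOA, IFITM2 is smaller in every siALDOA library, and IFITM3 overlaps between the groups.

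These paralogs are alike in sequence, and how reads with several matches were counted is not given in the sources used here. The 4 RNA18SN copies of 18S ribosomal RNA carried equal counts in 6 of 6 libraries, 194611 each in siALDOA replicate 1. Reads that match several copies thus counted towards each of these. Equal counts do not show whether they were entered in full or divided evenly. Of the 150-base words of its longest GENCODE transcript, IFITM1 shared 26.2% with another gene, all of them with an overlapping readthrough gene (ENSG00000288681) that has no row of its own among the symbols. IFITM2 shared 0% and IFITM3 1.0%, the latter with IFITM1. At 50 bases, 12.3% of IFITM1, 5.3% of IFITM2 and 16.1% of IFITM3 words were shared with another member. IFITM10 shared 25.0% of its 150-base words with a readthrough gene that joins it to CTSD (ENSG00000250644), and BST2 and PLSCR1 shared 0% at 50, 100 and 150 bases. Antisense genes overlap IFITM1, IFITM2 and IFITM3, and without a stated strand setting their reads cannot be told apart from those of the sense genes. The levels of the IFITM genes are uncertain to that extent.

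Levels between genes were compared per kilobase of exon union. In siControl the order was BST2 at 194 ± 13.5, PLSCR1 at 35.7 ± 2.24, IFITM3 at 22.4 ± 1.30, IFITM2 at 20.7 ± 3.17, IFITM1 at 13.5 ± 1.07 and IFITM10 at 5.69 ± 0.373 CPM per kilobase (SD, n = 3). Tetherin RNA was the most abundant by a wide margin, and IFITM3 and IFITM2 did not differ beyond their spread on this scale. In siALDOA BST2 reached 339 ± 35.0, PLSCR1 66.8 ± 0.702, IFITM1 53.6 ± 8.64, IFITM3 52.7 ± 9.91, IFITM2 28.7 ± 1.41 and IFITM10 4.71 ± 0.611 CPM per kilobase (SD, n = 3). IFITM1 thus moved from below IFITM2 to the level of IFITM3. Per kilobase of the longest transcript, IFITM3 in siALDOA was at 144 ± 27.0, close to PLSCR1 at 146 ± 1.54 and above the mean of IFITM1 at 106 ± 17.1, so the place of IFITM3 and IFITM1 in the order depends on the length used. On that scale IFITM3 and IFITM2 were also apart in siControl, at 61.0 ± 3.54 and 33.0 ± 5.07 CPM per kilobase (SD, n = 3).

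**Figure D4:**
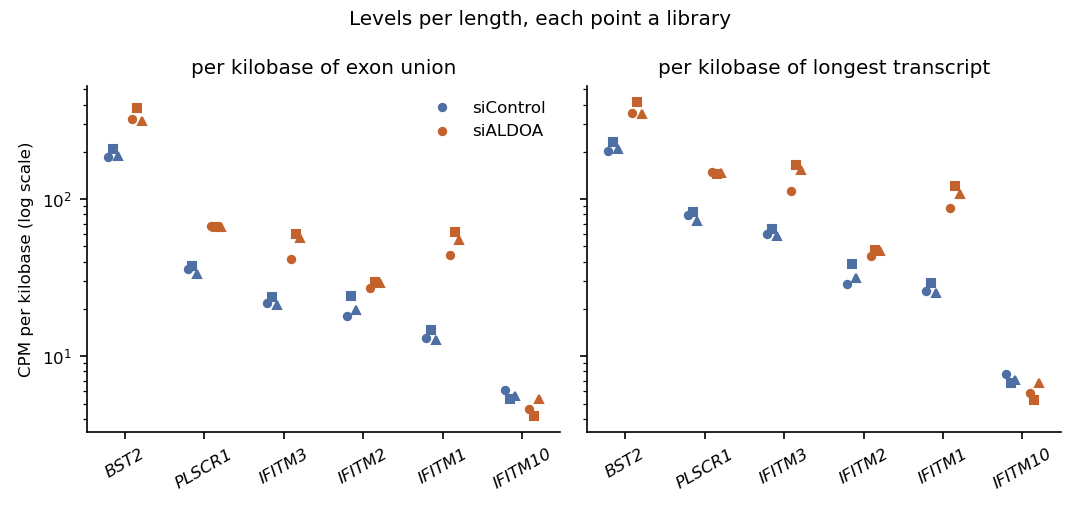
Level of each member per kilobase of exon union (left) and of the longest transcript (right), in CPM per kilobase on a log axis; each point is a library, siControl in blue and siALDOA in orange, with circles, squares and triangles for replicates 1, 2 and 3. BST2 is highest and IFITM10 lowest in both panels and both groups.

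The genomic neighbours were not used to choose the members. Among 24 annotated genes, up to 3 on each side of each member, 12 were tested, 1 was higher and 1 was lower in siALDOA, where 4.36% and 5.29% of all tested genes were. The higher gene was BISPR (ENSG00000282851, chromosome 19, 17405686 to 17419324), a long noncoding RNA induced by interferon that runs the opposite way, with 55 bases between it and BST2. It stood at 14.6, 13.5 and 12.7 CPM in siControl and at 25.2, 25.8 and 23.7 CPM in siALDOA, without overlap, a log2 fold change of 0.87 (standard error 0.094, edgeR adjusted p = 1.94e-06). For every 100 BST2 counts there were 7.14, 5.84 and 6.14 BISPR counts in siControl and 7.12, 6.17 and 6.81 in siALDOA, so the pair kept about the same proportion in both groups. MVB12A, an ESCRT subunit with an exon that overlaps one of BISPR on the same strand, is another of the 24 neighbours and is named here after its values were seen; it was not called, at a log2 fold change of 0.13 (standard error 0.091, edgeR adjusted p = 0.414). The bases of the GAS core at -58 to -50 of BST2 are those at -6 to 2 of BISPR.

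The lower neighbour was CTSD (ENSG00000117984, 1752752 to 1764573), which encodes the lysosomal protease cathepsin D and lies on the same strand as IFITM10 with 2156 bases between them. CTSD had 569, 556 and 585 CPM in siControl and 369, 400.4 and 432 CPM in siALDOA. The groups were apart, at a log2 fold change of -0.51 (standard error 0.061, edgeR adjusted p = 8.11e-06). Since the readthrough gene named above spans CTSD and IFITM10, their counts may share reads, and there were 4.60 to 5.13 IFITM10 counts per 100 CTSD counts in siControl and 4.98 to 5.99 in siALDOA.

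Other genes of the same biology were taken from 9 lists with 78 genes, of which 58 were tested. In total 15 of the 58 were called higher and 2 lower, where 4.36% and 5.29% of all tested genes were, and their median log2 fold change was 0.09, against 0.00 over all tested genes. All 3 siALDOA libraries were above all siControl libraries for 20 of the 58 genes and below them for 7 (13.1% and 14.6% over all tested genes). These counts come from lists written with results of these data known.

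The lists closest to the members themselves held few calls. The list of relatives by the CD225 domain, the domain that defines the IFITM proteins, held 10 genes, pseudogenes among them. Of these, 3 were tested (PRRT1, PRRT2 and TMEM91), and 0 were called by edgeR, DESeq2 or limma-voom, with 0 at an unadjusted p under 0.05. IFITM5, the bone-specific member of the IFITM1 cluster, had 5 to 15 counts in each library. The processed pseudogene IFITM4P had 0, and the processed pseudogene IFITM9P was not among the genes listed for the libraries. Among 8 scramblases and flippases, 6 were tested and 0 were called by any of these tools, again with 0 at an unadjusted p under 0.05. With 4.36% of all tested genes called higher and 5.29% lower, lists this short can hold 0 calls without differing from other genes. PLSCR4, of the same gene cluster as PLSCR1, had 287 to 344 counts in siALDOA and 326 to 339 in siControl, while PLSCR2 had at most 3.

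The proteins that modify or bind IFITM3, such as the palmitoyltransferase ZDHHC20, the ubiquitin ligase NEDD4 and the tetraspanins CD9 and CD81, were measured as 11 genes, all tested, with a median log2 fold change of 0.01. Only SETD7, a lysine methyltransferase that modifies IFITM3, was called, and it was lower, where 5.29% of all tested genes were called lower and 4.36% higher. SETD7 had 132, 134 and 136 CPM in siControl and 110.0, 124 and 112 CPM in siALDOA. The groups did not overlap, yet the difference was small, a log2 fold change of -0.22 (standard error 0.060, edgeR adjusted p = 0.0220). The call was lost without siALDOA replicate 3, siControl replicate 2 or siControl replicate 3, where the log2 fold change was -0.22 to -0.20 (edgeR adjusted p = 0.0774 to 0.101), and with library totals only, where it was -0.15 (edgeR adjusted p = 0.309).

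Of 8 partners and modifiers of tetherin, 7 were tested, BISPR was higher and MARCHF8 lower. Of all tested genes, 4.36% were called higher and 5.29% lower. MARCHF8, a membrane ubiquitin ligase that can bring tetherin to lysosomes, was at 23.4, 23.3 and 29.0 CPM in siControl and at 19.1, 21.5 and 19.7 CPM in siALDOA. Its siControl replicate 3 stood above the others, and the log2 fold change was -0.33 (standard error 0.099, edgeR adjusted p = 0.0422). Without that library it was -0.21 (edgeR adjusted p = 0.288). Leaving out any siALDOA library ended the call as well, at a log2 fold change of -0.38 to -0.29 (edgeR adjusted p = 0.0509 to 0.110). The call was also lost in limma-voom, at -0.32 (limma-voom adjusted p = 0.0547), and with library totals only, at -0.26 (edgeR adjusted p = 0.180). LILRA4, the receptor for tetherin on plasmacytoid dendritic cells, had 1 count in siControl replicate 2 and 0 elsewhere.

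Of the other restriction factors listed, 5 of 9 tested genes were called higher and 0 lower (4.36% and 5.29% over all tested genes), with a median log2 fold change of 0.35. RSAD2, whose product viperin sits on the endoplasmic reticulum and lipid droplets, was at 18.0, 22.4 and 19.3 CPM in siControl and at 81.3, 105 and 112 CPM in siALDOA. Its siALDOA replicate 1 was the lowest of its group, as for IFITM1 and IFITM3, and the log2 fold change was 2.32 (standard error 0.10, edgeR adjusted p = 6.15e-12). IFI6, a small membrane protein that guards the endoplasmic reticulum against flaviviruses, went from 101 to 127 CPM in siControl to 258 to 333 CPM in siALDOA, a log2 fold change of 1.46 (standard error 0.089, edgeR adjusted p = 4.53e-10). LY6E, a lipid-anchored surface protein that restricts coronaviruses, was higher by a log2 fold change of 0.79 (standard error 0.068, edgeR adjusted p = 6.96e-08). CNP and LGALS3BP, with log2 fold changes of 0.39 and 0.35, completed the 5. SERINC3 and SERINC5, lipid scramblases that reduce the infectivity of retroviruses, gave -0.03 and 0.11 and were not called, as were NCOA7 at 0.00 and MARCHF2 at 0.30, and CH25H, which makes an oxysterol that blocks membrane fusion, had 0 counts in all libraries.

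**Figure D5:**
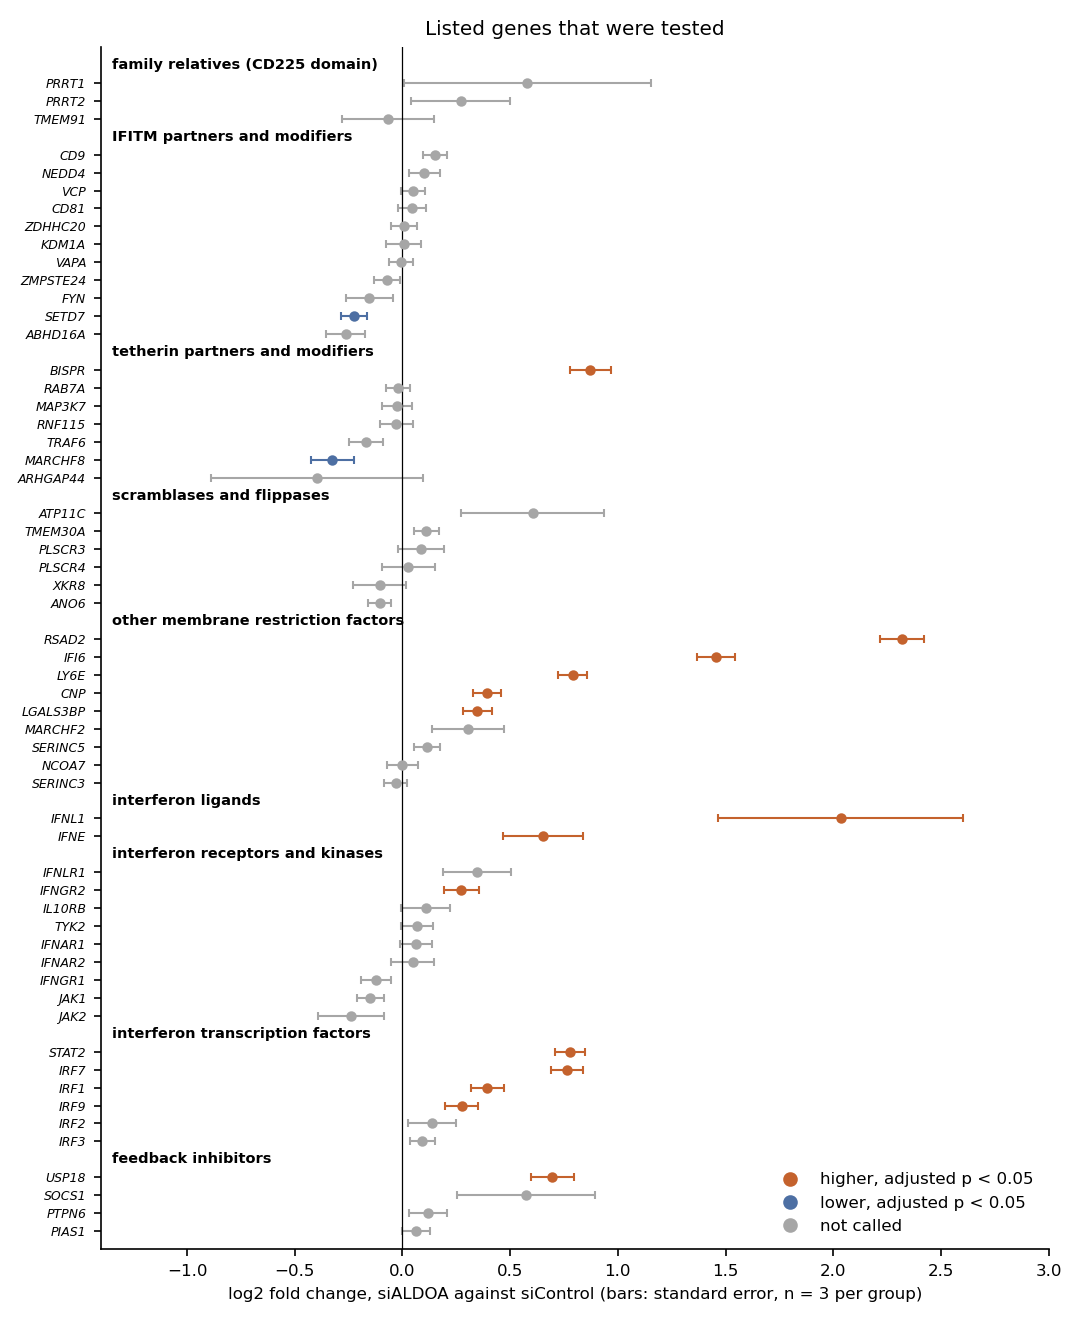
Log2 fold change of siALDOA against siControl (x axis) for tested genes of the 9 lists (y axis; 1 gene is not shown), with the standard error as bars (n = 3 per group); orange marks genes called higher, blue lower and grey not called. RSAD2 at 2.32 and IFNL1 at 2.03 lie farthest to the right, and the lists of IFITM partners and of scramblases lie around 0. IFNL1 passed the filter on low counts only through siALDOA.

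The interferon genes themselves were near or below the limit of detection, apart from IFNE. Of 10 ligands 2 were tested, and both were called higher, where 4.36% of all tested genes were called higher and 5.29% lower. IFNL1 passed the filter on low counts only through siALDOA, the group where it was high, so nothing is read from this count. DESeq2 called 1 of the ligands higher, IFNE. With at least 10 counts required in every library 1 was also called, since the siControl counts of IFNL1 were below that limit. IFNE, a type I interferon of epithelia, had 192, 108 and 154 counts in siControl and 247, 199 and 203 in siALDOA, a log2 fold change of 0.65 (standard error 0.18, edgeR adjusted p = 0.0287). IFNL1, a type III interferon, had 5, 4 and 3 counts in siControl and 16, 17 and 13 in siALDOA, a log2 fold change of 2.03 (standard error 0.57, edgeR adjusted p = 0.0266). IFNL1 rests on few counts, and leaving out 1 library ended the call of IFNL1 in 6 of 6 fits, with a log2 fold change of 1.84 to 2.23 (edgeR adjusted p = 0.0552 to 0.137). The call of IFNE was lost without siALDOA replicate 1, siControl replicate 2 or siControl replicate 3, at a log2 fold change of 0.48 to 0.63 (edgeR adjusted p = 0.0906 to 0.158).

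Some ligands that did not pass the filter were also counted mainly in siALDOA. IFNB1, the type I interferon that most cells can make, had 2, 5 and 6 counts in siALDOA and 0 in each siControl library. IFNL2 had 3, 11 and 17 counts against 0 in each siControl library, and IFNL3 had 4, 9 and 10 against 0, 0 and 2. IFNL2 and IFNL3 are near-identical copies, so their counts may share reads. In a fit without the filter, IFNL2 was called higher (edgeR adjusted p = 0.00169), whereas IFNB1 (edgeR adjusted p = 0.0784), IFNL3 (edgeR adjusted p = 0.0863) and IFNL1 (edgeR adjusted p = 0.0897) were not, so the call of IFNL1 was lost there. IFNA1 had 11, 4 and 7 counts in siALDOA and 7, 2 and 1 in siControl, and IFNA2, IFNW1 and IFNG had 0 in all libraries.

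The receptors and their kinases showed little difference, with 1 of 9 genes called higher and 0 lower (4.36% and 5.29% over all tested genes) and a median log2 fold change of 0.06. The type I receptor chains IFNAR1 and IFNAR2 had log2 fold changes of 0.06 (standard error 0.074) and 0.05 (standard error 0.10), and the type III chains IFNLR1 and IL10RB 0.35 (standard error 0.16) and 0.11 (standard error 0.11). None of these 4 passed the threshold, and their groups overlapped. IFNGR2, a chain of the receptor for interferon gamma, was at 34.7, 37.0 and 34.1 CPM in siControl and at 43.4, 37.8 and 46.9 CPM in siALDOA, a log2 fold change of 0.27 (standard error 0.081, edgeR adjusted p = 0.0371). Without siALDOA replicate 1 or 3 or any siControl library its call was lost, at a log2 fold change of 0.20 to 0.31 (edgeR adjusted p = 0.0638 to 0.184), and limma-voom called 0 of the 9 genes higher (IFNGR2 at limma-voom adjusted p = 0.0505). Its partner IFNGR1 was at -0.12 and the kinases JAK1, JAK2 and TYK2 at -0.15, -0.24 and 0.07, all not called.

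Downstream of the receptors, some transcription factors were higher in siALDOA and others were not called. STAT2 had 46.1, 47.4 and 48.5 CPM in siControl and 72.9, 86.4 and 84.3 CPM in siALDOA. The groups did not overlap, and the log2 fold change was 0.78 (standard error 0.071, edgeR adjusted p = 1.63e-07). IRF9, the DNA-binding partner of STAT2 on the ISRE, had 51.5, 56.4 and 54.1 CPM in siControl and 57.7, 71.9 and 66.2 CPM in siALDOA. Its groups lay close together, at a log2 fold change of 0.27 (standard error 0.076, edgeR adjusted p = 0.0253), and the call was lost without siALDOA replicate 2 or 3 or any siControl library, at 0.20 to 0.31 (edgeR adjusted p = 0.0518 to 0.161). IRF7 and IRF1, factors that are themselves induced by interferon, had log2 fold changes of 0.76 and 0.39, whereas IRF2 and IRF3, at 0.14 and 0.09, were not called. Among 4 tested feedback inhibitors, USP18, which blocks the type I receptor, was called higher at 0.70 (standard error 0.099, edgeR adjusted p = 7.39e-05). The shares over all tested genes were 4.36% called higher and 5.29% lower.

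The genes most like the members were sought by the Pearson correlation of log2 CPM with the mean standardized profile of the 6 members over the 6 libraries. Of 13718 other genes whose mean reached 1 CPM, PPFIBP1 (r = 0.999), APOL6 (r = 0.997), BIN1 (r = 0.997), PSMB9 (r = 0.996) and UBE2L6 (r = 0.996) were highest, and 229 genes (1.67%) had an r over 0.95. The libraries fall into the treatment groups, so r mainly records the step between these, and it says nothing of the size of the change. On deviations from the group means r was 0.957, 0.862, 0.734, 0.814 and 0.984 in the same order. UBE2L6, the conjugating enzyme for ISG15, was at 26.5, 33.2 and 26.1 CPM in siControl and at 79.4, 103 and 101 CPM in siALDOA, with the lowest siALDOA value in replicate 1 as for IFITM1. PSMB9, a subunit of the immunoproteasome, and APOL6, an apolipoprotein L, had log2 fold changes of 1.44 and 0.51. PPFIBP1, a liprin scaffold protein, was at 0.32, and BIN1, which curves membranes, differed by only 0.07 (standard error 0.060, edgeR adjusted p = 0.548) despite its high r.

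Markers of other cells were at low levels. The summed level of 8 leukocyte markers was 12.5, 14.8 and 14.1 CPM in siControl and 16.2, 17.3 and 17.6 CPM in siALDOA, and nearly all of it was CD14, the only 1 of the 8 that was tested. CD14 was called higher at a log2 fold change of 0.32 (standard error 0.10, edgeR adjusted p = 0.0485), and its call was lost without siALDOA replicate 2 or 3 or any siControl library, at 0.27 to 0.38 (edgeR adjusted p = 0.0629 to 0.153), and in limma-voom (limma-voom adjusted p = 0.0525). Its part in the result was not tested. The defining markers CD3E, MS4A1 and TYROBP were at 0 in all libraries, and PTPRC had 1 count in siControl replicate 3. CLEC4C, a marker of plasmacytoid dendritic cells, which make large amounts of interferon, was at 0 in all libraries, and the 3 markers of these cells had 7 to 21 summed counts per library, mostly IL3RA. Fibroblast markers summed to 1.87 to 2.12 CPM in siControl and 1.90 to 2.77 CPM in siALDOA, mainly COL1A1 with COL1A2 at 0, endothelial markers to at most 0.754 CPM, led by TEK, and erythrocyte markers to at most 4 counts.

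Ribosomal RNA genes took 17.4%, 15.3% and 8.15% of the counts in siControl and 13.1%, 7.71% and 8.11% in siALDOA. Within siALDOA, the library with the highest share, replicate 1, had the lowest IFITM1, IFITM2 and IFITM3 levels, whereas within siControl the library with the lowest share, replicate 3, had the lowest IFITM1 and IFITM3 levels. The part of this share in the result was not tested. With the ribosomal RNA genes left out before scaling, the log2 fold changes of IFITM1, IFITM3, BST2 and PLSCR1 were 1.99, 1.24, 0.80 and 0.90. Without siALDOA replicate 1 those of IFITM3 and BST2 were 1.38 and 0.84.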

How the data were processed

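RNA-Seq of HT29 cells comprised 3 siALDOA and 3 siControl libraries taken at 48 h, grouped by the sample labels. The values are counts deposited by the authors, whole numbers without normalization, from tophat2 alignment to hg38 and gfold counting for each gene symbol. Gene annotation, strand setting and the treatment of reads with several matches are not given in the sources used here. Totals were 27277538 to 33237914 counts per library.

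In R 4.3.3, edgeR 4.0.16 was run over all genes with filterByExpr, TMM and the quasi-likelihood test, adjusted by Benjamini-Hochberg over 15307 genes and called below 0.05. The script was tested on simulated data. The standard error was obtained as |log2 fold change| over the root of F. Log2 CPM used a prior count of 2. Alternatives used DESeq2 1.42.0 and limma 3.58.1, and other steps python 3.11.15, scipy 1.17.1 and matplotlib 3.10.9. Lengths and positions came from GENCODE release 44, promoters from RefSeq.

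The members and lists were chosen with earlier results of these data known. Named genes were the members, ALDOA, called genes of each list, interferon ligands and receptors, STAT2 and IRF9, called neighbours, BISPR and the 5 genes most like the members. Further uncalled genes of the lists, markers, MVB12A and PGGHG were named after their values were seen. The result of 1 listed gene is not reported here.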

Additional observations from a re-analysis of the deposited data

How the results depend on the processing

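The direction was kept for the 6 members and ALDOA under each alternative tried on their own rows. These were library totals only, upper quartile normalization, DESeq2, limma-voom, the likelihood ratio test and no filter. Further ones were a minimum of 10 counts per library, a replicate block, ribosomal RNA genes left out and 1 library left out. IFITM1, IFITM2 and IFITM3 summed into 1 row gave a log2 fold change of 1.26, which cannot show the direction of each gene. With 1 library left out, the log2 fold change was 1.87 to 2.103 for IFITM1, 0.39 to 0.60 for IFITM2, 1.13 to 1.38 for IFITM3, 0.71 to 0.86 for BST2, 0.86 to 0.95 for PLSCR1 and -0.38 to -0.19 for IFITM10. The count of members called lower was 1 (IFITM10) without a filter, at -0.27, and with the replicate block, at -0.27, and 0 to 1 with 1 library left out; as the members were chosen on these values, nothing is read from it. Library totals only gave 279 genes called lower and 0 listed genes lower, and limma-voom 1 listed gene lower. Leaving out 1 library gave 359 to 644 genes higher, 471 to 790 lower, 0 to 2 listed genes lower and 1 to 2 neighbours higher, from fewer samples. Neighbours called higher were 2 under library totals only, the likelihood ratio test, no filter, the replicate block and the unadjusted P of the study. At the unadjusted P the second was PGGHG, beside IFITM1 to IFITM3, at a log2 fold change of 0.26 (standard error 0.088, edgeR adjusted p = 0.0735). Its groups overlapped. IFNAR2, not called, ranged from -0.017 to 0.099 with 1 library left out, negative only without siALDOA replicate 2. Per kilobase of the longest transcript, siControl levels were 26.7 CPM for IFITM1, 33.0 for IFITM2, 61.0 for IFITM3, 7.16 for IFITM10, 214 for BST2 and 78.2 for PLSCR1, above those per exon union since the length is shorter. With IFITM10 left out of the mean profile, an alternative chosen after seeing the data, the r of the 5 most similar genes was 0.984 to 0.998. The replicate numbers were not taken as pairs, since deviations of same-numbered libraries correlated at 0.035, 0.027 and 0.026, although each library correlated best with its own number, and with a replicate block 987 genes were called higher and 1175 lower. Without the filter, the ligands called higher were IFNE and IFNL2, and IFNL1 was not called (edgeR adjusted p = 0.0897); all ligands but IFNE rest on few counts.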
